A study of Mus musculus with 15 samples.

Results

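The comparison was between the side population (SP) of the mouse brain tumour line 4346 and the SP of untransformed mouse neurospheres. Its members are the 6 arrays whose titles name those sorts, 3 per group, of 15 arrays in the series, and every annotated gene was described across them. Genes were measured on the Affymetrix Mouse Genome 430 2.0 array, and 11908 of 18193 annotated genes passed a filter on low signal and were tested. Line 4346 is a tumoursphere culture from a brain tumour of a mouse that carried S100beta-verbB and was p53-/- or p53+/-, and the labels do not say which of these applied. The cells were injected into the brains of 3 NOD mice with the Prkdc scid and Il2rg tm1Wjl alleles, a strain without mature lymphocytes, then taken out again, cultured and sorted, so each 4346 array is 1 host. The neurospheres came from 3 independent mice of the same genotypes, S100beta-verbB with p53-/- or p53+/-, so the transgene and the altered p53 locus were carried by both groups. Another passage of the labels speaks of mice injected with neurospheres, which leaves the route of the neurosphere cells unsettled. The 3 replicates of 4346 are 3 hosts of 1 line, so a p-value here does not measure the spread between tumours. It rests on the spread between arrays within each of 5 groups, pooled over all 15 arrays, including groups outside this comparison. No sort of 4346 cells outside the SP is among the 15 arrays, and a difference of SP from other cells within line 4346 was therefore not measured.

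The SP is the fraction of cells that pumps out a Hoechst dye, largely through ABC transporters such as ABCG2, and it has been used to enrich for stem-like cells. Neurospheres are floating cultures of neural stem and progenitor cells, usually grown with epidermal growth factor (EGF) and marked by NES, SOX1 and SOX2. The v-erbB product is a truncated EGF receptor of a retrovirus that signals without ligand, and the S100beta promoter drives it in glial cells. Oligodendrocyte progenitors arise from neural progenitors, carry PDGF receptor alpha, NG2 and SOX10, and later switch on the myelin genes. Brain tissue normally holds little fibrillar collagen, whereas cartilage is built of type II, IX and XI collagen with aggrecan.

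Signals are given as deposited, in MAS5 units, and differences as log2 values of 4346 minus neurospheres after quantile normalization and addition of 16 to each signal. The added 16 makes a difference smaller where 1 group lies near 0. Tests are limma's moderated two-sided tests with Benjamini-Hochberg adjustment over all genes tested, and a gene "rose" or "fell" where its adjusted p was under 0.05. Array medians ran from 41.5 to 56.7 in the 6 arrays, rank correlations of an array with the others of its group from 0.895 to 0.910, and 0 pairs of arrays held identical values. Array 3 of 4346 stood apart in its 3' to 5' ratios, with actin at 5.30 while the other 14 arrays lay between 2.49 and 3.29, and Gapdh at 2.0 where they lay between 1.33 and 1.62, and values without it are given beside results that it moves. Xist, expressed from the inactive X, read 86.8, 30.7 and 7628 in the neurospheres and 2.44, 6.16 and 45.2 in 4346, while Y-linked Eif2s3y read 3795, 1252 and 5.02 against 16.7, 0.912 and 12.6. Both genes were therefore low in all 3 arrays of 4346, and neurosphere array 3 differed from neurosphere arrays 1 and 2 in both. Several defining markers of other cells were low on all 6 arrays, with maxima of 2.28 for Aif1 and 47.3 for Ptprc (microglia and leukocytes), 29.3 for Cdh5 and 32.0 for Pecam1 (endothelium), 33.4 for Rbfox3 (neurons) and 6.56 for Hba-a1 (erythroid cells), but the neuronal marker Snap25 reached 120, 289 and 64.7 in neurospheres and 85.6 in 4346. In bulk samples, fewer cells of a type and less RNA per cell cannot be told apart.

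Of the 11908 genes, 2891 differed between 4346 SP and neurosphere SP (24.3%), 1663 being higher in 4346 (14.0%) and 1228 lower (10.3%). An unadjusted p under 0.05 was reached by 4355 genes, and the 3 arrays of one group lay wholly above the 3 of the other for 4392 genes (36.9%). The calls included 106 genes higher by over 4 on the log2 scale and 33 lower by as much. The genes with the largest rises included those of oligodendroglia, cartilage and collagen matrix, and those with the largest falls included astroglial, neural stem cell and EGF receptor genes. Under centring of each array on its median in place of quantile normalization, the median difference of all genes moved from 0.02 to 0.19, the calls numbered 2214, and 75.4% of them were higher in 4346 in place of 57.5%. Without array 3 of 4346 the calls numbered 2293, of which 2042 were among the 2891.

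Promoters are printed for 4 genes, Acan and Hapln1, which code for partners in the cartilage proteoglycan aggregate and were among the genes most raised against neurospheres, and Sox1 and Zic1, neural transcription factors among the genes most lowered against the other tumour line, so that the start-site sequence can be seen beside the values. They are RefSeq sequences of build GRCm38.p6 read 5' to 3' on the gene's strand, and cover the upstream region and the first transcribed bases. Capitals mark CG dinucleotides, which are the same on both strands and are the sites where mammalian DNA is methylated. Methylation was not measured in these samples.
Acan (chr7:79052976-79053275, plus strand, 31 CG): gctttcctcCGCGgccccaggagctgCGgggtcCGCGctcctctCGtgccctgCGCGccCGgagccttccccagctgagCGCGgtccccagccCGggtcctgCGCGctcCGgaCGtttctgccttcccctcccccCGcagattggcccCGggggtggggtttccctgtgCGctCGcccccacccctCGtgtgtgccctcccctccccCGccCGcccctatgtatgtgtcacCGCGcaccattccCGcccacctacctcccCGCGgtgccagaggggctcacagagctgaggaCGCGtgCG
Hapln1 (chr13:89540386-89540685, plus strand, 3 CG): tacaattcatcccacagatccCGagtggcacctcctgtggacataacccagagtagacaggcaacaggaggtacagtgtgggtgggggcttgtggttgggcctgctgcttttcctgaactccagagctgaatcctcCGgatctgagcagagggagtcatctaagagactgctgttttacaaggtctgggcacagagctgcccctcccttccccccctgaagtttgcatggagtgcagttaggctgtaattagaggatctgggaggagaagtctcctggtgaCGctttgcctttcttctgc
Sox1 (chr8:12395269-12395568, plus strand, 37 CG): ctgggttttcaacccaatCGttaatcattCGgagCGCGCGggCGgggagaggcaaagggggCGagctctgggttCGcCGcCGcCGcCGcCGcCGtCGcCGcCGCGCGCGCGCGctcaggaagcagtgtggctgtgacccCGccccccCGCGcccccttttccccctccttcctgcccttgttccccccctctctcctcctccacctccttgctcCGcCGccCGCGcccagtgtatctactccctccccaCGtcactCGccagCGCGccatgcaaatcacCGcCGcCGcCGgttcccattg
Zic1 (chr9:91365719-91366018, minus strand, 31 CG): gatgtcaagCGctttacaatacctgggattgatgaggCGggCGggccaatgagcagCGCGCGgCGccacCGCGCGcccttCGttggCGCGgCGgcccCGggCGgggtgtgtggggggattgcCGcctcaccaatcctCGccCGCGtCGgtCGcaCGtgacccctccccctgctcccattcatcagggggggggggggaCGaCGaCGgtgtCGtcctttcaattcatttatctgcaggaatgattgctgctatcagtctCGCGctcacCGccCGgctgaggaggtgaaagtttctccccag
Of promoters in the same table that matched tested genes, 24.1% held 30 or more CG and 4.80% held 3 or fewer, so Sox1, Zic1 and Acan were among the CG-rich ones and Hapln1 among the CG-poor ones. Over the 1293 matched genes that rose the median was 19 CG, and over the 977 that fell 23 CG, against 21 over 9667 matched promoters of tested genes. Of the 30 genes named for the size of their difference, 18 had a promoter in the table.

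Many genes of the oligodendrocyte lineage rose in 4346 SP, with Sox10 and Mbp going from near 0 in neurospheres to high signal in every 4346 array. Of 18 tested oligodendrocyte progenitor markers 11 rose and 1 fell, with a median log2 difference of 2.22 against 0.02 over all genes. The shares over all genes were 14.0% for rises and 10.3% for falls. Of 14 tested myelin and oligodendrocyte markers, from 21 on the array, 10 rose and 0 fell by limma's adjusted p. At an unadjusted p under 0.05, 11 were higher and 0 lower, and the median was 2.34. The summed signal of the progenitor list was 50066 to 59746 in 4346 and 21014 to 31145 in neurospheres. Sox10, the transcription factor that commits cells to the oligodendroglial fate, read 5289, 3433 and 8730 in 4346 against 0.819, 1.67 and 1.39 in neurospheres, a log2 difference of 8.24 ± 0.35 (SE, n = 3 per group, adjusted p = 1.9e-10). Mbp, a structural protein of myelin, read 6704, 8083 and 11660 against 18.9, 3.98 and 20.1, a difference of 8.20 ± 0.34 (adjusted p = 1.9e-10). The arrays of both genes were far apart between groups. Both passed the filter on low signal only through arrays of the tumour lines. The other probe sets of Sox10 gave smaller differences, 3.15 to 5.42, and those of Mbp gave 1.75 to 8.26.

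Surface markers of oligodendrocyte progenitors moved the same way. Cspg4, which codes for NG2, read 2155, 1623 and 4652 in 4346 against 178, 105 and 86.6, a difference of 4.21 ± 0.39 (adjusted p = 1.64e-06). Pdgfra, the receptor for the progenitors' main mitogen, read 7731, 7048 and 4120 against 187, 1325 and 310, or 3.72 ± 0.52 (adjusted p = 9.14e-05). No array overlapped, though neurosphere array 2 lay well above the other neurosphere arrays for Pdgfra. Gpr17, a receptor of committed progenitors, read 467, 362 and 496 against 6.37, 28.3 and 4.69, or 4.07 ± 0.42 (adjusted p = 3.92e-06). C1ql1, a secreted protein of progenitors, rose by 4.39 and Rlbp1, a retinoid carrier, by 4.42. Myelin lipid and junction genes were among those that rose: Fa2h, which hydroxylates myelin lipids, read 401, 424 and 861 against 38.8, 33.9 and 32.6 (3.45 ± 0.33), and Cldn11, the tight junction claudin of myelin, read 2846, 6237 and 6292 against 80.8, 184 and 650 (4.30 ± 0.51). Enpp6, a marker of newly formed oligodendrocytes, spread widely within 4346, at 132, 841 and 3126, yet all 3 lay above the neurosphere values of 23.3, 15.6 and 10.4. Cnp, a myelin enzyme, rose by 0.78 and Myrf, a myelin gene regulator, by 1.64.

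Olig2, a transcription factor of oligodendrocyte progenitors and of many neural progenitors, was the member that fell. It read 3587, 2564 and 1084 in 4346 against 4762, 5384 and 3613 in neurospheres, a difference of -1.07 ± 0.32 (adjusted p = 0.0243). It was thus present in both groups, and the call was lost under 6 of 26 alternatives, among them without array 3 of 4346, where the difference was -0.59 (adjusted p = 0.0998). S100b, whose promoter drives the transgene and which is expressed in astrocytes and oligodendroglia, read 2991, 4040 and 4288 against 89.4, 366 and 313, or 3.91 ± 0.58 (adjusted p = 0.000143).

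**Figure D1:**
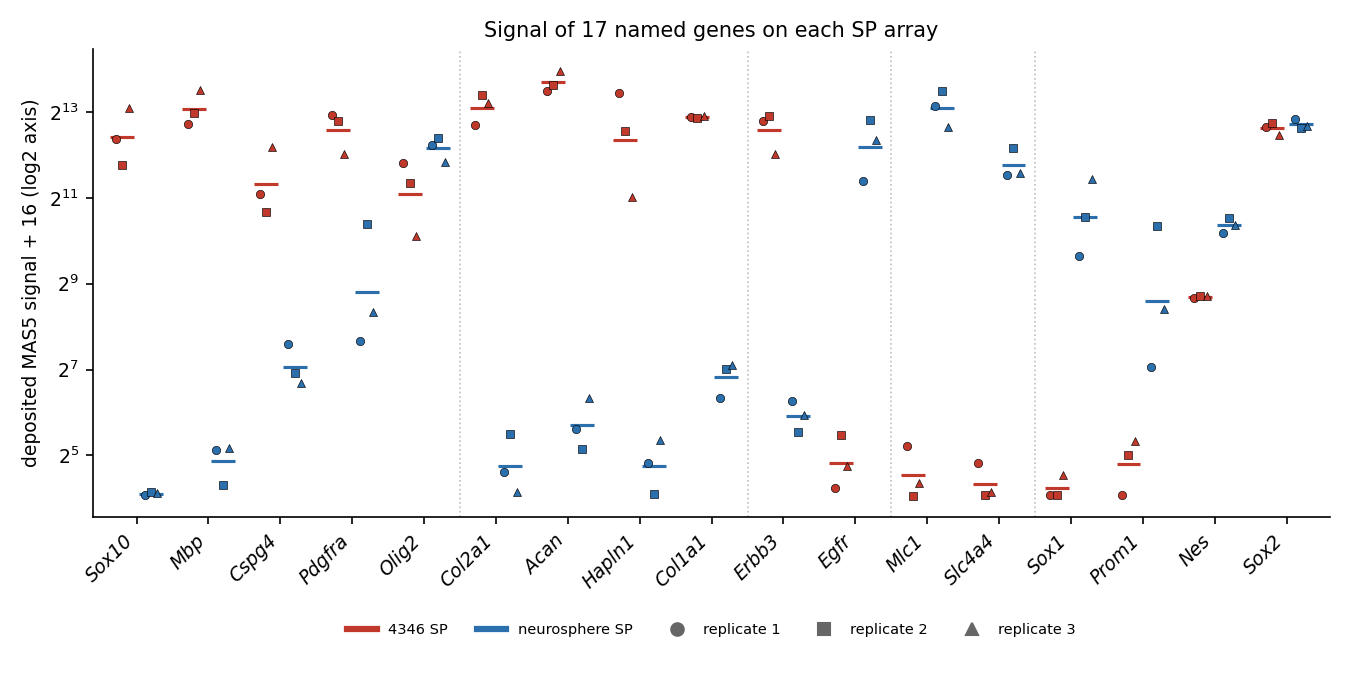
Deposited MAS5 signal plus 16 on a log2 axis for 17 genes, with 1 point per array, a marker shape per replicate, and a bar at the mean of the log2 values in 4346 SP and in neurosphere SP. Sox10, Mbp, Col2a1 and Acan are high in 4346 and close to the floor in neurospheres, Mlc1 and Egfr show the opposite order, and the arrays of Sox2 overlap.

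Cartilage matrix genes had the highest median difference of the lists with at least 10 tested members. This rank is descriptive, since the lists were chosen with earlier results of these data known. Of 24 members on the array 6 did not pass the filter on low signal. Col2a1, Cnmd and Hapln1 passed it only through arrays of the tumour lines. Of 18 tested members 14 rose and 1 fell, against 14.0% and 10.3% of all genes, and the median difference was 3.75. Col2a1, the main collagen of cartilage, read 6573, 10720 and 9405 in 4346 against 8.68, 29.5 and 1.89, a difference of 8.29 ± 0.31 (adjusted p = 7.45e-11). Acan, the large proteoglycan aggrecan, read 11480, 12710 and 15950 against 32.7, 19.8 and 65.2, or 7.95 ± 0.34 (adjusted p = 1.9e-10). Hapln1, the link protein that holds aggrecan to hyaluronan, read 11120, 6001 and 2070 against 12.2, 1.18 and 25.1, or 7.61 ± 0.47 (adjusted p = 1.06e-08). The 3 other probe sets of Hapln1 gave 0.89 to 3.21, and the mean over its probe sets 3.71. Col2a1, Acan and Hapln1 were separated between groups by far more than their spread, which was widest for Hapln1 in 4346. Type IX and XI collagens rose as well, Col9a1 by 7.35 and Col9a3 by 5.30, Col11a1 by 4.46 and Col11a2 by 4.62. Cnmd, a cartilage glycoprotein that restrains vessel growth, read 2560, 3454 and 6067 against 19.9, 2.69 and 2.97 (7.32 ± 0.35). The exception was Sox9, the transcription factor that drives cartilage genes and is also expressed in neural stem cells and astrocytes. It read 1662, 2729 and 3527 against 8528, 9288 and 7873, and fell by 1.74, while its cartilage partner Sox6 rose by 1.45. Without array 3 of 4346, 12 members of the list rose and 1 fell.

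Fibrillar and basement membrane components were also higher, though not uniformly. Of 26 tested collagen and basement membrane genes 13 rose and 2 fell, with a median of 1.39. Among 14 fibroblast and meningeal markers 11 rose and 1 fell, with a median of 2.65. The shares over all genes were 14.0% and 10.3%. Col1a1, the main chain of type I collagen, read 7573, 7366 and 7658 in 4346 against 65.5, 113 and 122, a difference of 6.0 ± 0.56 (adjusted p = 1.66e-06). Col3a1, of type III collagen, read 783, 1073 and 276 against 33.0, 38.0 and 31.8 (3.69 ± 0.80). Fmod, a small proteoglycan that binds collagen, read 1917, 2128 and 9950 against 8.94, 11.2 and 1.41, and Mgp, an inhibitor of calcification, read 2510, 2048 and 8607 against 34.6, 43.5 and 35.1. Array 3 of 4346 was the highest of its group for Fmod, Mgp and Col6a1, and without it Fmod still differed by 6.47 and Col6a1 by 3.35. Fmod and Mgp passed the filter on low signal only through arrays of the tumour lines. The laminin chain Lamb1 was among those that fell, at 104, 140 and 154 against 606, 520 and 1458, or -2.37 ± 0.44 (adjusted p = 0.000981). Thy1, a surface protein of neurons as well as fibroblasts, was the fibroblast marker that fell, by 2.17. Several fibroblast markers were thus high in 4346, and the part of other cell types in these lists was not tested.

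Enzymes that remodel matrix rose along with it. Of 19 tested matrix proteases and inhibitors 10 rose and 3 fell. Mmp2, a gelatinase, read 1939, 2257 and 6134 in 4346 against 13.1, 19.5 and 10.03, a difference of 6.67 ± 0.40 (adjusted p = 1.02e-08). Mmp16, a membrane-bound activator of MMP2, read 1287, 1298 and 1680 against 96.9, 121 and 126 (3.41 ± 0.26). The inhibitors Timp2 and Timp3 rose by 2.16 and 1.70, and Mmp19 fell by 2.25. Other genes with large rises were Susd5, a membrane protein, by 7.73, Capn6, a calpain without protease activity, by 6.50, and Nxf3, an RNA export factor known mainly from testis, by 7.14. The other probe set of Capn6 gave 2.63. Nxf3 was 1 of 9 tested germline genes, of which 2 rose and 1 fell (1 and 1 without array 3 of 4346). Over all genes 14.0% rose and 10.3% fell. Dkk3, a secreted member of the Dickkopf family, read 3062, 2129 and 1959 against 0.997, 17.3 and 6.48, or 6.65 ± 0.36. Mmp2 and Dkk3 passed the filter on low signal only through arrays of the tumour lines.

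Neural crest and Schwann cell markers rose in 9 of 14 tested members and fell in 0 (9 and 0 at an unadjusted p under 0.05). Over all genes 14.0% rose and 10.3% fell. The median of the list was 2.48, and it shares Sox10 with the oligodendrocyte progenitor list. Snai2 codes for a transcriptional repressor that acts in the neural crest and in epithelial-mesenchymal transition. It read 3158, 2646 and 3537 in 4346 against 6.07, 2.08 and 22.0, a difference of 7.0 ± 0.30 (adjusted p = 1.9e-10). The other probe set of Snai2 gave 3.15. Snai2 passed the filter on low signal only through arrays of the tumour lines. S100a6, a calcium-binding protein, read 1945, 6003 and 9283 against 198, 163 and 37.0 (5.21 ± 0.76). Factors of epithelial-mesenchymal transition did not move one way: of 10 tested, 4 rose and 3 fell, and with centred arrays 4 rose and 1 fell. Foxc2 read 2282, 1461 and 835 against 31.8, 51.3 and 139 (4.14 ± 0.62), and Prrx1 rose by 1.59, with other probe sets from -0.18 to 1.29. Zeb1 fell by 1.09 and the mesenchymal cadherin Cdh2 by 0.94. The epithelial cadherin Cdh1 rose, at 123, 289 and 740 against 47.7, 22.9 and 32.4 (2.75 ± 0.58).

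**Figure D2:**
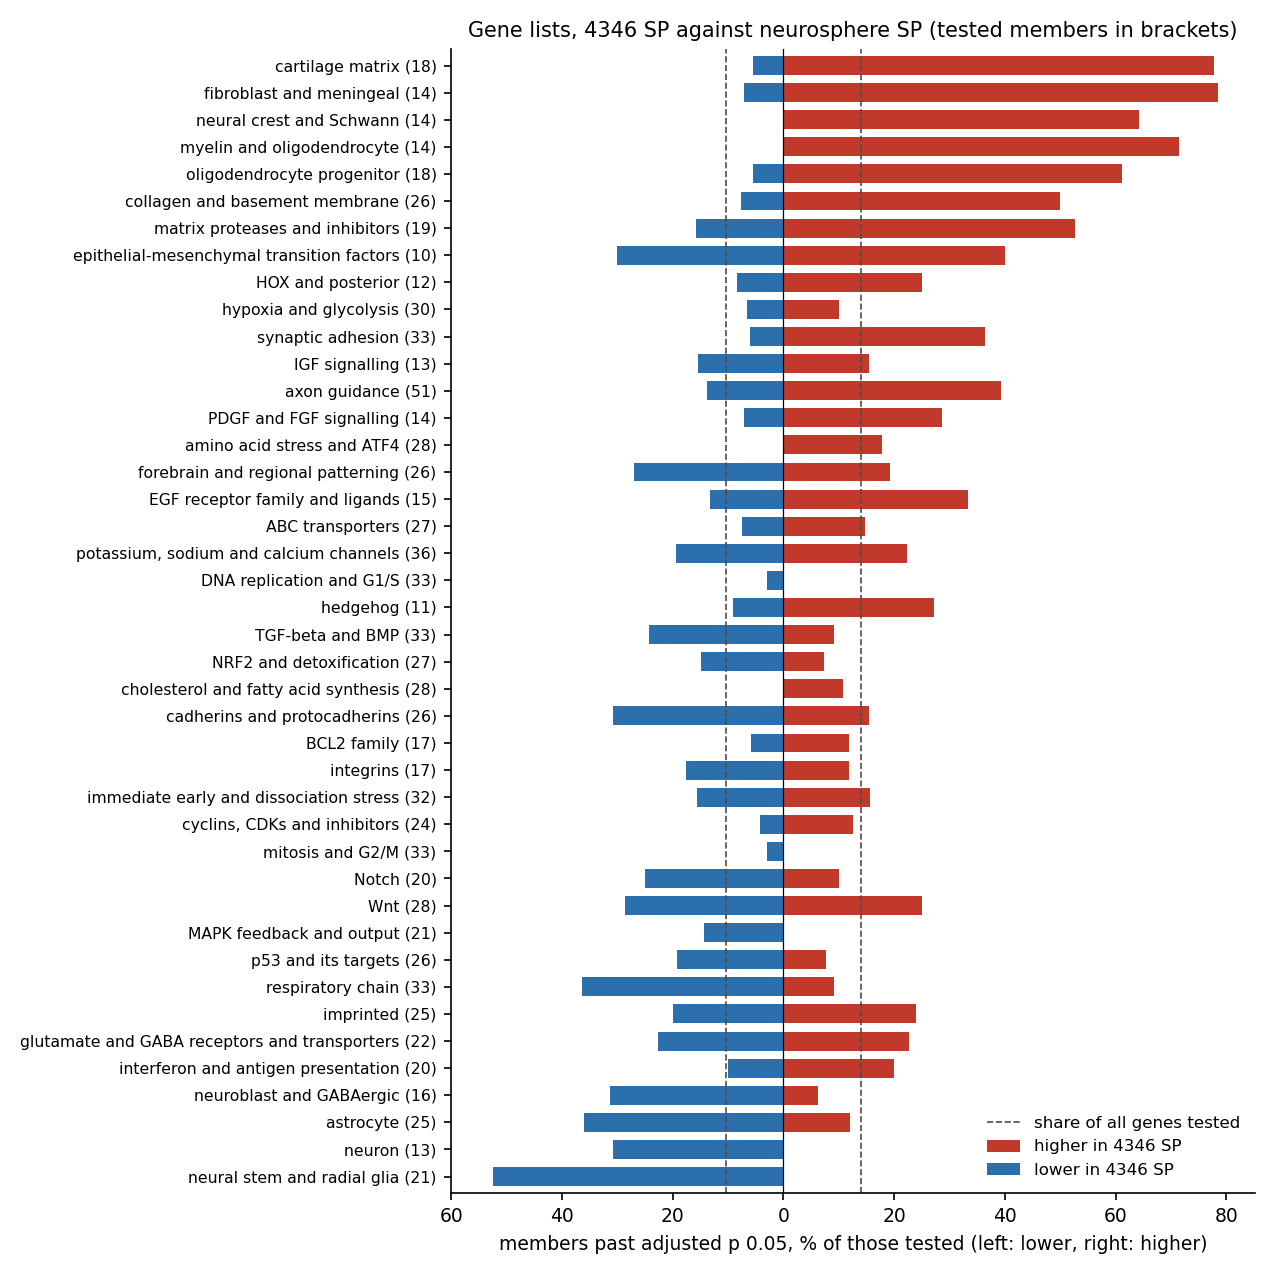
Percentage of tested members of each gene list with at least 10 tested members that were higher (bars to the right) or lower (bars to the left) in 4346 SP at an adjusted p under 0.05, with dashed lines at 14.0% and 10.3%, the shares over all genes. Cartilage, fibroblast, myelin, neural crest and oligodendrocyte progenitor lists have the longest bars for higher calls, and neural stem and astrocyte lists the longest among lower calls together with the respiratory chain.

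Among astroglial genes, falls outnumbered rises in 4346 SP. Of 25 tested astrocyte markers 9 fell and 3 rose, against 10.3% and 14.0% of all genes, and the median was -0.74. Mlc1, a membrane protein of astrocyte endfeet, read 21.1, 0.746 and 4.45 in 4346 against 9037, 11440 and 6436, a difference of -8.39 ± 0.43 (adjusted p = 1.29e-09). Slc4a4, a sodium bicarbonate cotransporter of astrocytes, read 12.1, 0.876 and 1.63 against 2937, 4588 and 3047, or -7.28 ± 0.44 (adjusted p = 1.02e-08), with a mean over its probe sets of -3.97. Both genes were near 0 in every 4346 array. Aqp4, the water channel of astrocytes, read 1.39, 1.64 and 2.59 against 178, 1027 and 59.5 (-3.74 ± 0.79), and Aldh1l1, a folate enzyme of astrocytes, fell by 3.28. Gpm6a, a membrane glycoprotein of neurons and neural progenitors, read 0.795, 87.0 and 19.8 against 8929, 11810 and 7164 (-7.75 ± 0.62). Gfap, the intermediate filament of astrocytes, read 34.8, 48.7 and 307 against 139, 69.5 and 49.0, and its groups overlapped (0.28 ± 0.81, adjusted p = 0.841). Slc1a3, a glial glutamate transporter, had a difference of -0.61 (adjusted p = 0.0906) and was high in both groups. The members that rose were S100b, Ndrg2 by 2.60 and Gpr37l1 by 2.18.

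Of 21 tested neural stem and radial glia markers 11 fell and 0 rose, against 10.3% and 14.0% of all genes. At an unadjusted p under 0.05 by limma, 13 were lower and 0 higher, and the median was -1.24. Without array 3 of 4346, 8 fell. Sox1, a transcription factor of neural progenitors, read 0.848, 1.03 and 7.21 in 4346 against 786, 1493 and 2748, a difference of -6.28 ± 0.42 (adjusted p = 3.94e-08). Nes, the intermediate filament nestin, read 390, 404 and 404 against 1145, 1461 and 1312, or -1.67 ± 0.24 (adjusted p = 0.000113). Sox1 was close to 0 in 4346, whereas Nes was lower but present. Prom1, which codes for the stem cell surface protein CD133, read 0.829, 16.2 and 24.1 against 116, 1281 and 322, or -3.71 ± 0.71 (adjusted p = 0.00123). Itga6, a laminin receptor subunit used to sort stem cells, read 270, 1567 and 1431 against 7862, 9940 and 9327 (-3.34 ± 0.43), and Nr2e1, a nuclear receptor that maintains neural stem cells, fell by 3.49. Bmi1, a Polycomb protein needed for stem cell renewal, read 3225, 3050 and 2134 against 4998, 4671 and 4135, or -0.73 ± 0.17 (adjusted p = 0.00515). Sox2, the core factor of neural stem cells, read 6374, 6834 and 5656 against 7262, 6345 and 6460, and did not pass the test (-0.07 ± 0.11, adjusted p = 0.687, and 0.10 with centred arrays).

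Neuronal and interneuron genes were lower where they changed, with exceptions. Of 16 tested neuroblast and GABAergic genes 5 fell and 1 rose, while 10.3% of all genes fell and 14.0% rose. Among 13 neuron markers 4 fell and 0 rose (6 and 0 at an unadjusted p under 0.05). Dlx2, a transcription factor of interneuron precursors, read 12.3, 135 and 69.8 in 4346 against 1496, 982 and 1850 (-4.16 ± 0.75). Gad1, which makes GABA, fell by 3.22. Stmn3, a tubulin-binding protein of neurons, read 111, 865 and 232 against 7977, 11450 and 6664, or -4.72 ± 0.53 (adjusted p = 1.01e-05). The gene that rose was Tubb3, a neuronal tubulin, at 268, 339 and 828 against 120, 115 and 16.3. Rfx4, a ciliogenic factor of neural progenitors, read 2.94, 17.2 and 24.5 against 1407, 3378 and 1758 (-5.97 ± 0.36), and of 8 tested ependymal and cilia genes 2 rose and 2 fell (2 and 1 without array 3 of 4346).

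Other cell types gave small lists, and over all genes 14.0% rose and 10.3% fell. Of 4 tested microglia and macrophage markers, from 22 on the array, 1 rose: Laptm5, a lysosomal membrane protein, at 63.4, 107 and 317 against 33.4, 41.4 and 54.7 (1.46 ± 0.45, adjusted p = 0.0266, but 0.91 with adjusted p = 0.135 without array 3). The summed microglial signal was 427 to 981 in 4346 and 557 to 927 in neurospheres. Of 5 tested endothelial genes 2 fell, Flt1, a VEGF receptor, at 7.61, 2.11 and 2.60 against 379, 1990 and 265 (-4.82 ± 0.63), and Plvap, a vessel diaphragm protein, which fell by 4.37. The other probe set of Flt1 gave -2.26. Of 6 tested pericyte genes 2 rose and 1 fell (2 and 0 without array 3), and these included Cspg4, which oligodendrocyte progenitors also express. The 1 tested erythroid gene, the alpha globin Hba-a2, did not pass (-0.68, adjusted p = 0.130), and the summed erythroid signal was 779 to 2242 in 4346 and 1828 to 3003 in neurospheres.

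The EGF receptor family changed in composition, with Egfr low and Erbb3 high in 4346 SP. Egfr, the endogenous EGF receptor, read 2.81, 28.4 and 10.9 in 4346 against 2689, 7145 and 5213, a difference of -7.20 ± 0.44 (adjusted p = 1.02e-08), and its other probe sets gave -6.64 to -1.08, with a mean over probe sets of -3.99. Erbb3, a neuregulin receptor of oligodendroglia and Schwann cells, read 7090, 7597 and 4157 against 61.0, 30.9 and 45.5, or 6.63 ± 0.32 (adjusted p = 8.89e-10). Erbb2, the shared partner receptor, differed by 0.79 without passing the test (adjusted p = 0.327). Whether any probe set also detects the verbB transgene was not tested. Lrig1, which marks EGF receptors for breakdown, read 202, 192 and 320 against 2851, 3966 and 1402, or -3.30 ± 0.34 (adjusted p = 3.9e-06), although its other probe sets ranged from -3.11 to 0.44. Tgfa, a ligand of the EGF receptor, read 239, 254 and 233 against 75.5, 93.6 and 56.2 (1.56 ± 0.29). In this family 5 of 15 tested genes rose and 2 fell, against 14.0% and 10.3% of all genes. Without array 3 of 4346, 3 rose and 2 fell.

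Targets of the RAS-MAPK cascade that feed back on it gave few calls, while 14.0% of all genes rose and 10.3% fell. Of 21 tested, 3 fell and 0 rose (4 and 0 at an unadjusted p under 0.05), and with centred arrays 1 fell. The phosphatase gene Dusp5 fell by 1.38, and the inhibitors Spry2 and Spry4 by 0.77 and 1.18, with adjusted p = 0.0478 for Spry4, whose call was lost under 18 of 26 alternatives. Dusp6, an ERK phosphatase, read 6696, 6168 and 5053 in 4346 against 4468, 5869 and 7260, and its groups overlapped (0.05 ± 0.18, adjusted p = 0.877). Among 14 PDGF and FGF genes 4 rose and 1 fell: besides Pdgfra, the ligands Pdgfa (0.60 and no longer called without neurosphere array 3) and Pdgfd rose by 0.97 and 3.07, and Fgf1 fell by 3.65. The other probe sets of Fgf1 gave -2.51 to -0.89. Of 13 IGF genes 2 rose and 2 fell (1 and 2 without array 3 of 4346). Igfbp2, a binding protein for insulin-like growth factors, read 98.6, 110 and 87.6 against 3337, 3021 and 7298, or -5.07 ± 0.59 (adjusted p = 1.44e-05). Adcyap1r1, the PACAP receptor, read 3.54, 3.75 and 4.79 against 821, 1532 and 292, and fell by 5.10, while its other probe sets gave -1.49 to -1.14.

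Pathway lists of Notch, Wnt, hedgehog and TGF-beta held calls in both directions, while 14.0% of all genes rose and 10.3% fell. Of 28 tested Wnt genes 7 rose and 8 fell, and without array 3 of 4346 5 rose and 5 fell. The ligand Wnt7a, a Wnt of neural progenitors, read 2.46, 1.94 and 1.56 in 4346 against 121, 718 and 287 (-4.08 ± 0.57), and Wnt5a read 213, 307 and 463 against 2224, 2735 and 1101 (-2.52 ± 0.35). Axin2, a target and inhibitor of canonical Wnt signalling, fell by 1.99, whereas the transcription factor Lef1 rose by 2.71 and the coreceptor Lrp6 by 0.95. Of 20 Notch genes 2 rose and 5 fell, with 3 and 2 without array 3 of 4346 and 3 and 3 with centred arrays. Lfng, a glycosyltransferase that tunes Notch, fell by 2.69, and Hey2, a Notch target, rose by 2.68. Hey1, its relative, did not pass (-0.09 ± 0.32, adjusted p = 0.869). Of 33 TGF-beta and BMP genes 3 rose and 8 fell, with 2 and 5 without array 3 and 5 and 4 with centred arrays. Bmpr1b, a BMP receptor, fell by 4.13 and Ltbp1, which stores TGF-beta in matrix, fell by 3.96. Of 11 hedgehog genes 3 rose and 1 fell, among them Hhip, a hedgehog inhibitor, by 2.31, and 1 rose and 1 fell without array 3.

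Genes that set position along the neural axis changed individually. Of 26 tested forebrain and regional patterning genes 5 rose and 7 fell, against 14.0% and 10.3% of all genes. Without array 3 of 4346, 5 rose and 4 fell. Irx1 and Irx2, homeobox genes, rose by 2.73 and 2.59, while Emx2, of the cortex, fell by 1.86 and Dmrta2, of the dorsal forebrain, by 2.76. Zic1 read 2.37, 5.29 and 19 in 4346 against 115, 484 and 50.7 (-2.66 ± 0.93, adjusted p = 0.0482), a call lost under 17 of 26 alternatives, among them without array 3 (adjusted p = 0.0769), and not shared by the other probe set, at -0.02. Of 12 tested HOX and posterior genes 3 rose, Hoxa2 by 2.68, Hoxa4 by 2.30 (adjusted p = 0.0895 without array 3) and Hoxa10 by 2.74, and Meis2, a HOX cofactor, fell by 2.11.

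Guidance cues and synaptic adhesion molecules rose more often than they fell. Of 51 tested axon guidance genes 20 rose and 7 fell, against 14.0% and 10.3% of all genes, and without array 3 of 4346 13 rose and 7 fell. Unc5c, a netrin receptor, read 5424, 4343 and 4306 in 4346 against 63.1, 83.3 and 44.8, a difference of 5.89 ± 0.27 (adjusted p = 3.56e-10). Sema3d, a secreted semaphorin, read 4561, 4000 and 1343 against 28.4, 46.4 and 78.0 (5.49 ± 0.46), and Slit2, a repellent of axons, read 4236, 8006 and 4810 against 118, 382 and 56.1 (5.09 ± 0.85). The Unc5c arrays were tight in both groups, while Sema3d was lowest in array 3 of 4346. The neuropilin Nrp2 fell by 2.17 and the Eph receptor Epha5 fell by 2.41. Of 33 synaptic adhesion genes 12 rose and 2 fell: the contactins Cntn1 and Cntn4 rose by 3.15 and 3.47 and the teneurin Tenm4 by 3.15, and the neurexin Nrxn2 fell by 3.10.

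Of 26 tested cadherins and protocadherins 4 rose and 8 fell, against 14.0% and 10.3% of all genes. The counts were 4 and 5 without array 3 of 4346, and 7 and 4 with centred arrays. The median relative to all genes was -0.09 and, with centred arrays, -0.07. Cdh19, a cadherin of Schwann and oligodendroglial cells, rose by 2.60 and Cdh20 fell by 3.13. Of 17 integrins 2 rose and 3 fell, against the same shares of all genes. Itgb3, the beta subunit of the vitronectin receptor, read 366, 1282 and 4264 in 4346 against 1.45, 30.6 and 16.7, or 5.46 ± 0.66 (adjusted p = 2.1e-05), and 4.595 without array 3. The other calls were Itga1, a collagen receptor subunit that rose by 2.04, and Itga5, Itga6 and Itga7, which fell by 2.81, 3.34 and 3.15.

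Receptors, transporters and channels for neurotransmission moved in both directions. Of 22 tested glutamate and GABA genes 5 rose and 5 fell, against 14.0% and 10.3% of all genes. Among 36 potassium, sodium and calcium channels 8 rose and 7 fell. Grm5, a metabotropic glutamate receptor, read 17.5, 32.2 and 14.0 in 4346 against 3983, 5846 and 4207, or -6.78 ± 0.31 (adjusted p = 3.56e-10). The AMPA receptor genes Gria3 and Gria4 rose by 3.86 and 4.08, Slc1a1, a glutamate transporter, by 4.24, and the GABA receptor gene Gabrg1 fell by 4.01. The other probe sets of Gria4 gave 1.39 to 1.88. Among channels, Kcna6 rose by 3.43 and Scn7a by 3.03, and Kcnj16 and Cacng5 fell by 2.59 and 3.78. Car2, a carbonic anhydrase, read 109, 128 and 58.3 against 3211, 3962 and 2401, and fell by 4.71. Ccbe1, a secreted protein needed for lymphatic vessels, fell by 6.27 and St8sia4, which adds polysialic acid to NCAM, by 4.91. The other probe sets of Ccbe1 gave -5.55 to -1.26.

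Genes of the cell cycle gave few calls. Of 33 tested DNA replication and G1/S genes 1 fell and 0 rose, and of 33 mitosis and G2/M genes 1 fell and 0 rose, shares below the 10.3% and 14.0% of all genes. At an unadjusted p under 0.05 limma gave 2 higher and 2 lower of the former and 1 higher and 4 lower of the latter. The calls were Rrm2, a ribonucleotide reductase subunit, at -0.76, and Kif20a, a mitotic kinesin whose groups overlapped, at -0.99. The call of Kif20a was lost under 8 of 26 alternatives, among them without array 3 of 4346 (adjusted p = 0.0704), and with centred arrays 0 replication genes and 1 mitosis gene (higher) were called. Mki67, a proliferation marker, read 2854, 1514 and 2706 in 4346 against 1378, 2423 and 2395 (0.16 ± 0.32, adjusted p = 0.756). Of 24 cyclins, cyclin-dependent kinases and inhibitors 3 rose and 1 fell (3 and 0 without array 3 of 4346), with larger changes. Cdkn1a, the p21 inhibitor and a target of p53, read 4557, 3370 and 6211 against 1025, 327 and 824, or 2.73 ± 0.37 (adjusted p = 6.53e-05), and Ccnd3, cyclin D3, rose by 1.81. Cdkn2a, which codes for p16 and p19ARF, read 718, 1020 and 2777 against 535, 744 and 864, and did not pass (0.80 ± 0.40, adjusted p = 0.159).

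Of 26 tested genes of p53 and its targets 2 rose and 5 fell, against 14.0% and 10.3% of all genes. With centred arrays 2 rose and 2 fell. Besides Cdkn1a, Phlda3, an AKT inhibitor, rose by 2.86. Pmaip1, the death activator Noxa, fell by 2.14 and Eda2r, a death receptor, fell by 2.05. Mdm2, the ubiquitin ligase of p53, read 3066, 3199 and 1659 in 4346 against 3407, 5305 and 3117, with a difference of -0.59 (adjusted p = 0.0901). Trp53 itself had no probe set with a single gene symbol and was not analysed here. In the BCL2 family 2 of 17 rose, of which Bik, a death activator, rose by 3.31, and 1 fell, while without array 3 of 4346 1 rose and 1 fell.

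Metabolic and stress lists were mixed, while 14.0% of all genes rose and 10.3% fell. Of 33 respiratory chain genes 12 fell and 3 rose, with small differences such as -0.74 for Atp5b, of ATP synthase, and -0.85 for Sdhc, of complex II. The counts were 14 and 0 without array 3 of 4346 and 1 and 2 with centred arrays. The list's median relative to that of all genes was -0.27 under both scalings. Ppargc1a, a regulator of mitochondrial genes and among those that fell, read 202, 305 and 29.8 against 525, 995 and 1056 (-2.50 ± 0.58). Of 30 hypoxia and glycolysis genes 3 rose and 2 fell (2 and 0 without array 3), of 28 cholesterol and fatty acid genes 3 rose and 0 fell, and of 28 amino acid stress genes 5 rose and 0 fell. At an unadjusted p under 0.05, 2 cholesterol and 2 amino acid stress genes were lower. P4ha2, a collagen prolyl hydroxylase, rose by 3.40, and Srebf1, a regulator of lipid synthesis, by 1.92. Among 27 NRF2 and detoxification genes 2 rose and 4 fell: Ugdh, which makes the glucuronate of hyaluronan and proteoglycans, rose by 1.87, Nqo1, a quinone reductase, by 2.01, and Gsta4 fell by 3.94. Of 20 interferon and antigen presentation genes 4 rose and 2 fell, and 1 and 1 without array 3. H2-K1, a class I antigen, fell by 2.01, a call lost without array 3 (-1.80, adjusted p = 0.0642). Of 32 immediate early genes 5 rose and 5 fell: the nuclear receptor gene Nr4a1 rose by 2.64 and Zfp36, a destabiliser of mRNA, fell by 2.19. Egr1, an early response factor, did not pass (-0.08 ± 0.09, adjusted p = 0.530).

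Abcg2, the transporter most tied to the SP sort, read 7302, 6859 and 5703 in 4346 against 6139, 6512 and 5259, and did not pass the test (0.17 ± 0.23, adjusted p = 0.631). Both groups were sorted for dye efflux, so this is a comparison among sorted cells. Abcb1b, a P-glycoprotein gene, read 236, 160 and 337 against 126, 114 and 160 and did not pass either (0.77, adjusted p = 0.103). Of 27 ABC transporters 4 rose and 2 fell, against 14.0% and 10.3% of all genes. Without array 3 of 4346, 2 rose and 3 fell. Abca1, which exports cholesterol, fell by 3.28, and Abcg1, which works beside it, rose by 2.62. The other probe set of Abca1 gave -1.06. Of 25 imprinted genes, expressed from 1 parental copy, 6 rose and 5 fell. Grb10, an adaptor that restrains insulin signalling, read 14360, 15150 and 13190 against 2090, 1218 and 61.5 (4.57 ± 1.26, adjusted p = 0.0150), with the neurosphere arrays far apart. Nnat, a membrane protein of developing brain, fell by 2.83 and Dlk1, a Notch-like membrane protein, rose by 2.83.

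Differences were unevenly spread over the chromosomes, a breakdown that was chosen after the values were seen. The median log2 difference was 0.55 for 464 genes of chromosome 15 and 0.54 for 664 genes of chromosome 8, against -0.50 for 430 genes of chromosome 12 and 0.02 over all genes. On chromosome 15 36.6% of genes rose and 3.23% fell, on chromosome 8 32.4% rose and 2.56% fell, and on chromosome 12 5.81% rose and 34.2% fell. Each 4346 array was set against the mean of the 3 neurosphere arrays, and each neurosphere array against the mean of the other 2. The chromosome 15 median was then 0.61, 0.43 and 0.63 in the 3 arrays of 4346 and 0.01, 0.02 and -0.02 in those of the neurospheres. The chromosome 8 median was 0.51, 0.43 and 0.69 against 0.08, -0.10 and 0.03, and that of chromosome 12 was -0.38, -0.50 and -0.59 against 0.02, -0.02 and 0.04. The 4346 arrays lay on one side and the neurosphere arrays on the other for each of these 3 chromosomes. With 3 arrays against 3 an exact two-sided permutation test cannot go below p = 0.1, the value for each, so it cannot decide whether the groups differ. The values it permuted also had unlike references in the 2 groups.

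The shifts ran along the whole of each chromosome. In 5 blocks of successive genes the median lay between 0.47 and 0.67 on chromosome 15, between 0.40 and 0.68 on chromosome 8 and between -0.67 and -0.34 on chromosome 12. Sox10 lies on chromosome 15 and Acan on chromosome 7, and the part of these shifts in the differences of single genes was not tested. Smaller medians included -0.33 for chromosome 19, whose arrays overlapped between the groups, -0.30 for chromosome 10, 0.28 for chromosome 6 and 0.23 for the X. On chromosome 10 the neurosphere arrays were themselves far apart, at -0.13, 0.29 and -0.16, against -0.24, -0.27 and -0.28 in 4346. The medians of chromosomes 5, 9, 13, 16 and 18 also kept one sign in all 5 blocks. With centred arrays, relative to the median of all genes, the medians of chromosomes 15, 8 and 12 were 0.54, 0.55 and -0.52. DNA copy number was not measured.

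**Figure D3:**
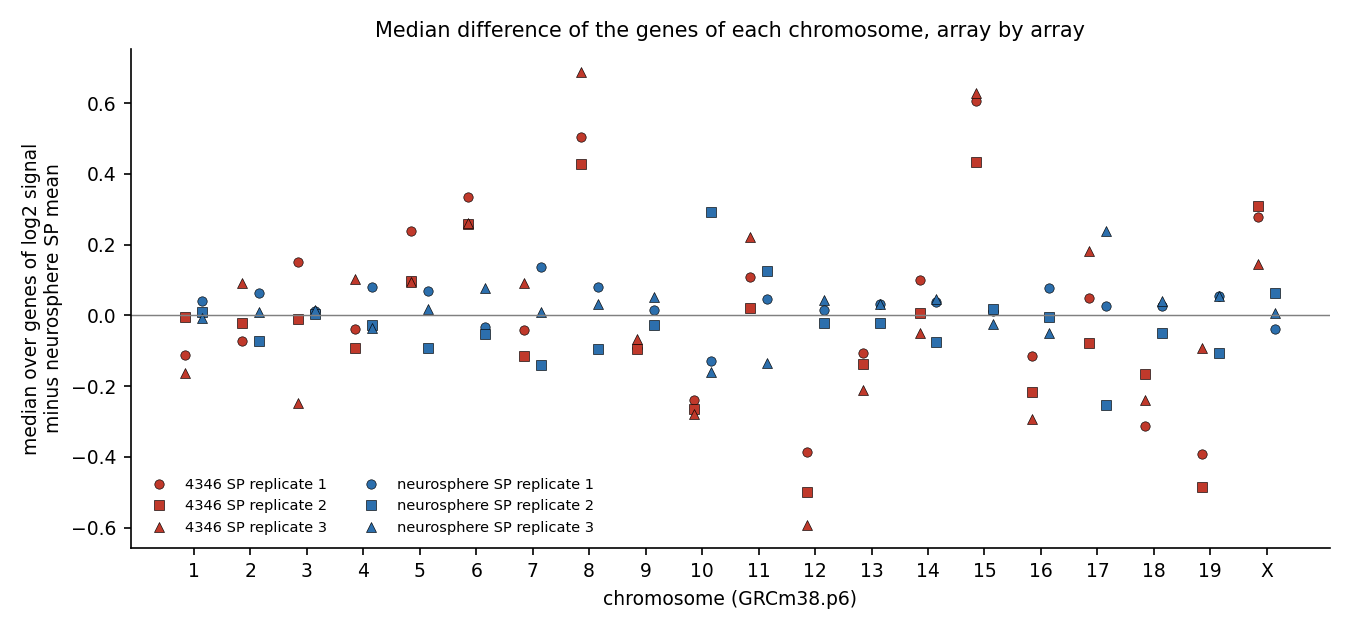
Median log2 signal of each chromosome's tested genes in each of the 6 arrays, minus the mean of the neurosphere SP arrays, with 1 point per array. The 4346 arrays lie above 0.4 on chromosomes 8 and 15 and below -0.3 on chromosome 12, and the neurosphere arrays lie between -0.10 and 0.08 on these 3.

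Array 3 of 4346 differed more from its group than the others did. Of all genes tested 18.1% differed by more than 1 on the log2 scale from the mean of arrays 1 and 2, whereas the same measure gave 7.77% for array 1 and 6.78% for array 2. Of its 2157 such genes 1364 were higher and 793 lower. Matrix genes were prominent among them, with 10 of 26 collagen and basement membrane genes higher by more than 1 and 2 lower, and 8 of 18 cartilage genes higher and 1 lower. List medians of array 3 minus arrays 1 and 2 were 0.69 for fibroblast, 0.66 for cartilage and 0.62 for collagen genes, -0.22 for oligodendrocyte progenitor and -0.41 for hypoxia genes. Its raised 3' to 5' ratios move with these values, and their part in them was not tested.

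**Figure D4:**
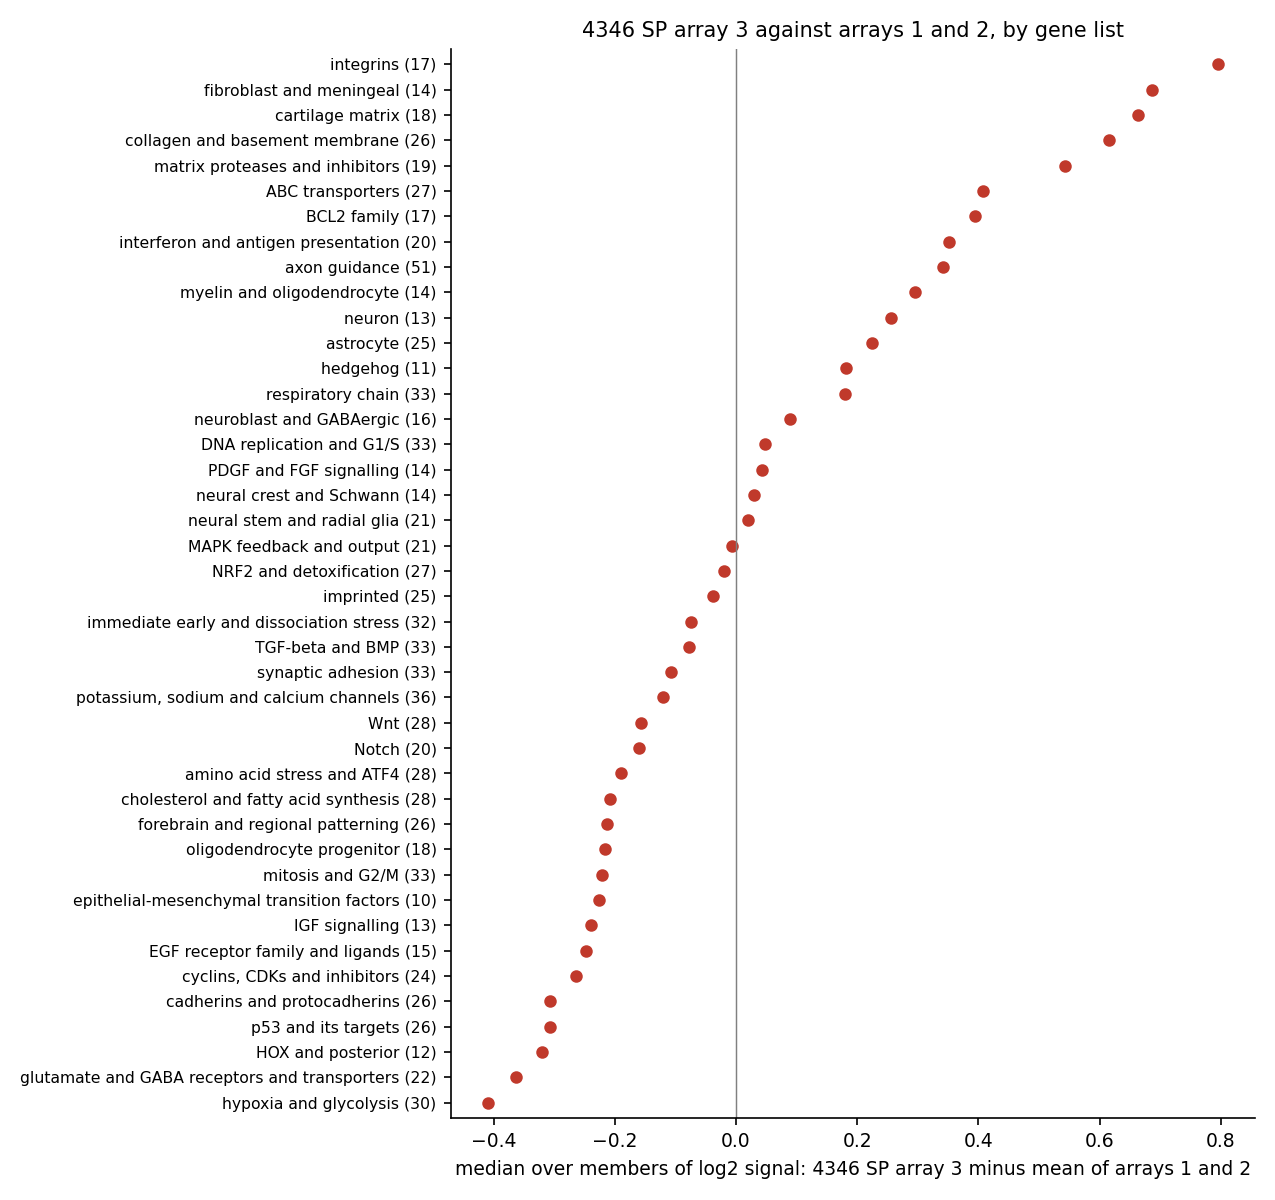
For each gene list with at least 10 tested members, the median log2 difference of 4346 SP array 3 from the mean of arrays 1 and 2. The number of tested members is in brackets. Integrin (0.80), fibroblast (0.69), cartilage (0.66) and collagen (0.62) lists lie to the right of 0 and the hypoxia list (-0.41) to the left.

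The SP of the other tumour line, 3447, also from a S100beta-verbB mouse with p53-/- or p53+/- and passed through 3 hosts, was the group closest in kind. Its comparison with the neurosphere SP uses the same 3 neurosphere arrays, so values of both lines are given side by side and no overlap is counted. Sox10 read 2602, 3607 and 3160 in 3447, Col2a1 6603, 6737 and 7911, Erbb3 7796, 6178 and 5271, Egfr 16.9, 24.1 and 34.6, and Mlc1 68.7, 40.7 and 63.2. Tested directly against each other, the lines differed in 197 genes (1.65%), 142 higher in 4346 (1.19%) and 55 lower (0.462%), with 1981 at an unadjusted p under 0.05. The 3447 SP arrays had rank correlations with their own group of 0.889, 0.880 and 0.855, below the 0.895 to 0.910 of the other 2 groups. Their medians were 63.0, 43.2 and 89.3. The effect of this on the count was not tested. With centred arrays 367 differed and 93.7% of them were higher in 4346, in place of 72.1%. The chromosome medians of 3447 against neurospheres were 0.46, 0.33 and -0.34 for chromosomes 15, 8 and 12, and those of 4346 against 3447 were 0.06, 0.17 and -0.13.

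Genes lower in 4346 than in 3447 included neural transcription factors. Sox1 read 1419, 2528 and 2158 in 3447, in the range of the neurospheres, and the lines differed by -6.68 (adjusted p = 1.25e-07). Zic1 read 997, 1156 and 1382 in 3447, above both other groups, and differed by -5.51 between the lines. Erdr1, a secreted regulator named for erythroid differentiation, read 12.3, 29.6 and 7.25 in 4346, 6313, 4361 and 5310 in neurospheres and 6952, 7811 and 6405 in 3447, or -7.19 ± 0.24 against neurospheres (adjusted p = 3.04e-11) and -7.70 against 3447. Averaged over its probe sets Erdr1 differed from neurospheres by -4.49. Sox1 and Erdr1 were thus near 0 in 4346 and high in both other groups. Ctr9, of the PAF1 transcription complex, read 108, 118 and 120 in 4346 and 3717, 3588 and 4969 in 3447, but was low in neurospheres too, at 110, 252 and 101. Stmn3 at 3073, 1982 and 3512 and Rfx4 at 156, 196 and 158 lay in 3447 between 4346 and the neurospheres.

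Genes higher in 4346 than in 3447 were of several kinds. Mmp2 read 154, 160 and 116 in 3447 (a line difference of 4.44, adjusted p = 8.36e-06), and Cnmd read 920, 739 and 850 (2.15, adjusted p = 0.00371). Both were highest in 4346, intermediate in 3447 and lowest in neurospheres. Piwil4, a germline protein that silences transposons, read 417, 2399 and 2236 in 4346, 53.5, 30.7 and 5.45 in neurospheres and 31.9, 0.687 and 50.7 in 3447. Alx1, a homeobox factor of cranial mesenchyme and cartilage, read 760, 434 and 764 in 4346, 4.97, 37.3 and 23.5 in neurospheres and 4.89, 12.9 and 26.8 in 3447. These were high in 4346 and low in both other groups. Serpinh1, the collagen chaperone HSP47, read 7002, 7001 and 7416 in 4346, 362, 969 and 516 in neurospheres and 48.1, 995 and 187 in 3447. By contrast, Ctsz, a lysosomal cathepsin, read 1372, 884 and 2728 in 4346 and 938, 1454 and 1061 in neurospheres, and 15.7, 3.33 and 44.1 in 3447. Bag3, a chaperone partner, Ppic, a prolyl isomerase, and Adgrl2, an adhesion receptor, were likewise low in 3447, and Bag3 and Ctsz did not differ between 4346 and neurospheres by the test. Ccnd2, cyclin D2, added after its values were seen, read 1155, 9135 and 6678 in 4346, 8326, 11970 and 10990 in neurospheres and 364, 312 and 102 in 3447. Abcg2 read 4099, 2142 and 3416 in 3447, so 4346 was higher by 1.04 (adjusted p = 0.0273).

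**Figure D5:**
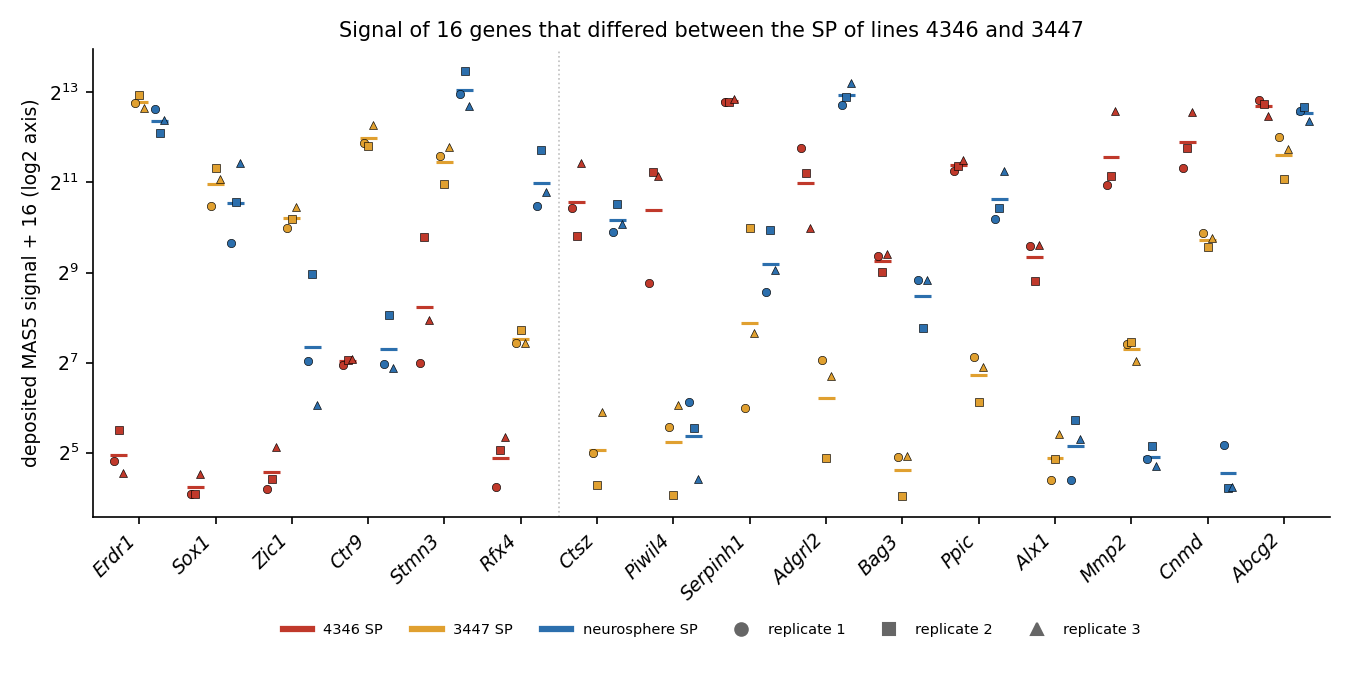
Deposited MAS5 signal plus 16 on a log2 axis for 16 genes named in the comparison of the lines, in 4346 SP, 3447 SP and neurosphere SP, with 1 point per array and a bar at the mean of the log2 values. Erdr1 and Sox1 are low in 4346 alone, Piwil4 and Alx1 high in 4346 alone, and Ctsz and Bag3 low in 3447 alone.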

How the data were processed

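RNA of sorted cells was amplified (NuGEN Ovation Pico) and hybridised to 15 arrays, 3 per group in 5 groups, per the labels' protocols. The authors deposited MAS5 signal intensity per probe set, made with Affymetrix Expression Console per the submitters' processing notes, with no version stated there. The trimmed mean of each array was 500, with 2% trimmed at each end. Scan dates and batches were not stated, and the number of arrays limits the precision.

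From the deposited intensities the signals were quantile normalized, 16 was added and log2 taken. Probe sets above their own array's median on at least 3 arrays were kept (26256 of 45101). Of all probe sets 34945 carried 1 gene symbol in the platform annotation, 932 several and 9160 none, and 34754 matched RefSeq. The kept probe set with the highest mean stood for a gene. Tests used limma 3.58.1 in R 4.3.3 on 5 group means, with a mean-variance trend (10 residual and 5.8641 prior degrees of freedom). The same steps were tested on simulated data.

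Genes named by rule were, among called genes without overlap, the 15 highest and 15 lowest against neurospheres and the 8 highest and 8 lowest between lines, up to 4 members of each list by smallest p, and a set of markers (209 genes). Other list members named were chosen after their values were seen. The members and lists were chosen with earlier results of these data known. Alternatives changed the scaling, added constant, filter, probe set rule, model and replicates.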

Additional observations from a re-analysis of the deposited data

Results flagged for a closer look

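The genes given here differed between the SP of line 4346 and the SP of line 3447 by the test of that difference itself (limma, adjusted p under 0.05), so their differences from the shared neurosphere arrays are unequal between the lines. All values are log2 differences of 4346 minus 3447. Among neural and patterning factors these were -6.68 for Sox1, -5.51 for Zic1, -2.35 for Rfx4, -2.0 for Dmrta2, -3.02 for Lhx4 and 4.54 for Alx1. Matrix, adhesion and surface genes gave 2.15 for Cnmd, 4.44 for Mmp2, 5.04 for Serpinh1, 4.91 for Adgrl2, -2.52 for Itga6, -0.45 for Cd24a and 1.81 for Gpr17. For transporters and lysosomal genes the values were 1.04 for Abcg2, -2.07 for Abca1, 2.30 for Slc7a3, 5.70 for Ctsz and 1.92 for Laptm5. Chaperone, nuclear and RNA genes gave 4.86 for Bag3, 4.82 for Ppic, 5.41 for Piwil4, -4.87 for Ctr9, -2.63 for Rbm45, 1.74 for Pole and -3.22 for Impact. The remaining values were -7.70 for Erdr1, -3.16 for Stmn3, 3.21 for Adm and -0.53 for Ndufs3. The calls of Ndufs3, Laptm5 and Gpr17 were the least stable of these, being lost under 20, 14 and 11 alternatives.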

How the results depend on the processing

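Against neurospheres, 5408 alternative values were computed for 209 named genes. Of these, 5180 counted as unchanged, 207 lost the call, 17 gained it and 4 counted as turned in sign. A value was unchanged if it kept direction and side of the threshold. A sign change also counted as unchanged where neither value was called and the shift was under the SE. Gfap, at -0.48 without array 3 of 4346, was such a case. Among the 4 counted as turned, Ctsz ran from -0.068 without array 3 of 4346 to 0.73 without its array 2. Ctr9 was -0.45 without neurosphere array 3 and 0.16 without array 2 (-0.49 with probe sets averaged). The others were Sox2 with centred arrays (0.10) and Abcc5 with probe sets averaged (0.054). The count of 2891 became 1764 when only the compared groups were fitted, and 2237 to 2980 with 1 array left out. With the replicate number as a block it was 3018 (2800 shared), and 197 between the lines. Same-numbered arrays of 4346 SP and neurosphere SP did not deviate together (correlations of -0.11, 0.15 and -0.05), so the numbers do not pair these groups. Arrays of neurosphere cells outside the SP, which also entered the shared spread, read 4353, 762 and 30.9 for Eif2s3y. The neurosphere SP arrays of the same numbers read 3795, 1252 and 5.01. Kdm5d, also Y-linked, read 731, 679 and 12.2 in the neurosphere SP and 673, 714 and 4.60 outside it. These 2 genes thus matched by number between the neurosphere sorts. The fit treated all these arrays as independent, and a pairing among them was not tested. If they are paired, the 10 residual degrees of freedom count related arrays as independent. Between the lines the count of 197 became 367 with centred arrays, 125 with 1 added, 116 with the compared groups alone and 105 to 332 with 1 array left out: 332 without array 2 of 4346, 123 without its array 3, and 120, 115 and 105 without arrays 1, 2 and 3 of 3447. Of 29 genes named between the lines 19 kept their call under every alternative, and Cd24a turned to 0.064 with centred arrays. Of 26 alternatives (25 for Laptm5), 20 ended the line call of Ndufs3, 14 that of Laptm5, 11 that of Gpr17, 6 that of Abcg2, 4 each those of Pole and Dmrta2, 3 that of Cd24a, and 1 each those of Cnmd, Itga6 and Abca1. The chromosome 13 median went from -0.14 to 0.028 with centred arrays, but relative to all genes it was -0.16 and -0.17. Of 97 named genes with other probe sets, 4 that were called (Prrx1, Lrig1, Ifi35 and Abcc5) have another of opposite sign. The causes were not tested.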
